A study of Glycine max with 12 samples.

Results

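Host genes that perceive rhizobia, regulate the start of nodulation and limit nodule number were followed across root and leaf of soybean (Glycine max) plants. The set was given by gene identifier and holds 5 of the 43517 gene models counted: the receptor genes NFR5A, NFR1A and NARK and the transcription factor genes NINA and NSP1. RNA was sequenced from roots and leaves of OE-34, a line overexpressing GmZF351, a zinc finger gene, and of the control cultivar Jack, with 3 libraries per tissue and genotype and 12 in all. The groups are called OE root, WT root, OE leaf and WT leaf, where OE is line OE-34 and WT is Jack. Plants of both genotypes grew in pots and were cut at the V1 stage, when the first trifoliate leaf was fully open. OE-34 is a single line, and neither the promoter that drives GmZF351 nor any rhizobial inoculation is stated. The replicates are named biological repeats with nothing further on plants or pools, so a p-value here speaks for the spread among these libraries, which may be partly technical.

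In legumes, rhizobia release lipochitooligosaccharides called Nod factors, which root cells bind through a pair of LysM receptor kinases, NFR1 and NFR5. The signal passes through the receptor kinase SYMRK to the nucleus, where GRAS transcription factors including NSP1 and the RWP-RK transcription factor NIN switch on infection and nodule formation. Nodule number is held down from the shoot by the leucine-rich repeat receptor kinase NARK, which responds to CLE peptides made in nodulating roots, and soybean plants without NARK form too many nodules. In bulk RNA of this kind, a change in the number of expressing cells and a change in RNA per cell cannot be told apart.

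Libraries held 16885874 to 19041634 counts. The gene model used for GmZF351, Glyma.06G290100, had 31406 to 35104 counts per library in OE root, against 0 to 4 in WT root, and 32486 to 39884 in OE leaf, against 0 or 1 in WT leaf, which fits the genotype labels. The leaf marker RCA11, a Rubisco activase gene, stood at 2.81 ± 0.955 CPM (counts scaled to a common library size) in OE root and 3.27 ± 0.167 in WT root, and at 15310 ± 687 in OE leaf and 25970 ± 1160 in WT leaf (SD, n = 3 each). The 3 leghemoglobin genes that could be identified, LB1, LB2 and LB4, which encode the oxygen carriers of nodules, had 0 counts in each of the 12 libraries, which allows up to 3 counts in each. Counts of WT root replicate 3 differed from those of replicate 1 by a chi-square of 9.87 per gene and from those of replicate 2 by 7.1, while those 2 differed by 2.97. Root results are therefore also given without it.

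In root, 4 of the 5 genes were higher in OE than in WT and 1 was lower, by edgeR's quasi-likelihood test with p-values adjusted by Benjamini-Hochberg across the 35968 genes tested (threshold 0.05). NINA rose most, 3.63-fold, followed by NFR1A with 2.12-fold, NFR5A with 1.39-fold and NARK with 1.3-fold, and NSP1 was 1.42-fold lower. Over all genes the same rule called 30.1% in root, 12% higher and 18.1% lower in OE. The median log2 fold change (log2FC, OE over WT) of the 5 genes was 0.48, against -0.02 over all genes tested. The 5 genes were chosen with earlier results of these data known, so this comparison is a description only. Without WT root replicate 3 the counts were again 4 higher and 1 lower. These counts did not hold for every root library left out. NSP1 lost its call in 4 of the fits that drop a single library, while the 5 genes kept their directions. In 1 of these fits, the one lacking WT root replicate 2, NARK lost its call as well, which left 3 higher and 0 lower. The split of all calls depends on the scaling, with 4310 higher and 6512 lower in OE root, and 5694 and 5431 under upper-quartile factors, under which the 5 genes kept their directions and calls.

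**Figure D1:**
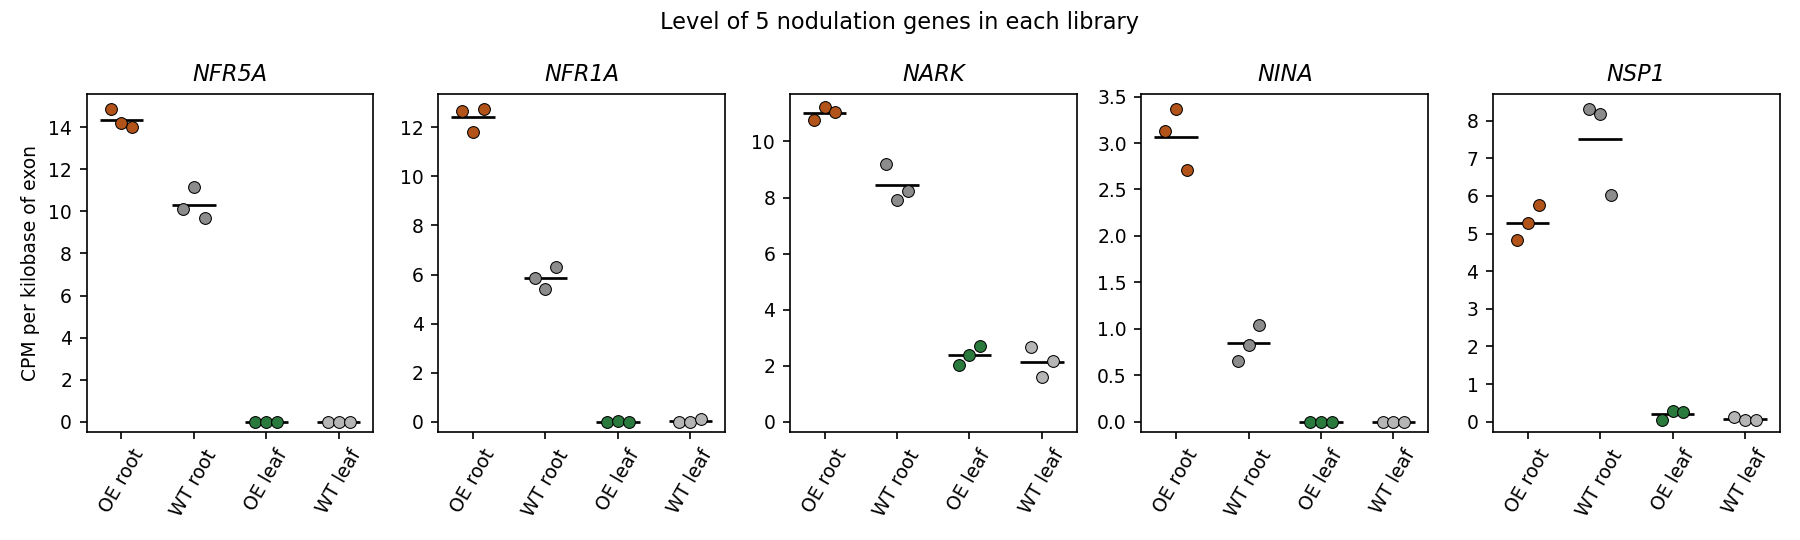
Level of each gene in CPM per kilobase of exon (vertical axes, linear, a separate scale per gene) in the 4 groups, with 1 point per library and a bar at the mean of 3. In root the OE points lie above the WT points for NFR5A, NFR1A, NARK and NINA and below them for NSP1, and in leaf NARK alone averages above 2 CPM per kilobase.

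NFR5A (Glyma.11G063100, chromosome 11, 4779592 to 4781813, plus strand, a model of 1 exon and 2222 bp) encodes the Nod factor receptor whose kinase domain is regarded as inactive. OE root libraries held 33.01, 31.55 and 31.18 CPM of it, against 22.47, 24.78 and 21.49 CPM in WT root. The groups do not overlap, and the OE libraries lie closer together than the WT libraries. The mean was 31.91 ± 0.969 CPM in OE root, against 22.91 ± 1.69 in WT root (SD, n = 3 each), a log2FC of 0.48 (SE 0.111, 95% interval 0.25 to 0.71, edgeR adjusted p = 0.00143). Without WT root replicate 3 the log2FC was 0.43 (edgeR adjusted p = 0.00652). In leaf none of the 6 libraries had a count.

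NFR1A (Glyma.02G270800, chromosome 2, 45475466 to 45480930, plus strand, 12 exons and 2590 bp of exon) encodes the partner receptor, whose kinase is active. OE root libraries held 32.80, 30.61 and 33.01 CPM, against 15.14, 14.04 and 16.33 CPM in WT root. The lowest OE library was well above the highest WT library. Means were 32.14 ± 1.33 CPM in OE root, against 15.17 ± 1.15 in WT root (SD, n = 3 each), a log2FC of 1.08 (SE 0.129, 95% interval 0.82 to 1.34, edgeR adjusted p = 4.35e-08). Without WT root replicate 3 it was 1.14. In leaf it was at the limit of detection, with 1 count over the 3 OE libraries and 3 counts over the 3 WT libraries, and no leaf fold is given.

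The proportion of the partner receptors was compared per library. Per kilobase, the ratio of NFR1A to NFR5A was 0.852, 0.832 and 0.908 in OE root, against 0.578, 0.486 and 0.652 in WT root. No OE library overlapped a WT library. The mean ratio was 0.864 ± 0.0393 in OE root, against 0.572 ± 0.0831 in WT root (SD, n = 3 each), 1.51-fold higher, with p = 0.1 in a two-sided exact permutation test, the smallest value that 3 against 3 libraries allow. This was 1 of 4 ratios of this kind, all chosen after the values had been seen. The Benjamini-Hochberg adjusted exact permutation p over the 4 was 0.133 here, so none can reach 0.05 at this size.

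NARK (Glyma.12G040000, chromosome 12, 2881839 to 2885669, minus strand, 2 exons and 3364 bp of exon), the receptor of autoregulation, was measured in both tissues. OE root libraries held 36.18, 37.79 and 37.15 CPM, against 30.89, 26.66 and 27.69 CPM in WT root. The root groups do not overlap. Means were 37.04 ± 0.808 CPM in OE root, against 28.41 ± 2.2 in WT root (SD, n = 3 each), a log2FC of 0.38 (SE 0.113, 95% interval 0.15 to 0.61, edgeR adjusted p = 0.00929). The call rests narrowly on WT root replicate 2, without which the log2FC was 0.34 and the edgeR adjusted p was 0.0538. Without WT root replicate 3 it held, with a log2FC of 0.36 and an edgeR adjusted p of 0.0222.

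In leaf, where NARK acts on nodule number, OE libraries held 6.80, 8.04 and 9.06 CPM of NARK, against 8.99, 5.42 and 7.25 CPM in WT. These groups overlap. The leaf log2FC was 0.14 (SE 0.157, 95% interval -0.18 to 0.46, edgeR adjusted p = 0.519), so the interval still includes a difference as large as the root value. Its sign turned without WT leaf replicate 2, to -0.03, and on library totals without scaling factors it was 0.52 and passed the threshold (edgeR adjusted p = 0.00554). That scaling raised the median log2FC of all genes in leaf by 0.382. Root minus leaf, the difference of the OE effects on NARK was 0.24 (SE 0.194, edgeR adjusted p = 0.409) and did not pass. It was -0.04 on library totals.

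NINA (Glyma.04G000600, chromosome 4, 72328 to 75769, minus strand, 5 exons after merging and 3077 bp of exon) encodes the transcription factor NIN, needed in legumes for both infection and nodule formation. OE root libraries held 231, 254 and 209 counts, or 9.64, 10.35 and 8.32 CPM, against 43, 54 and 71 counts, or 2.02, 2.54 and 3.21 CPM, in WT root. The lowest OE library exceeded the highest WT library, which was WT root replicate 3. Means were 9.44 ± 1.03 CPM in OE root, against 2.59 ± 0.597 in WT root (SD, n = 3 each), a log2FC of 1.86 (SE 0.221, 95% interval 1.41 to 2.31, edgeR adjusted p = 1.14e-07). Without WT root replicate 3 the log2FC was 2.04. Of all genes tested in root, 0.909% had a higher log2FC. No leaf library had a count of NINA.

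NSP1 (Glyma.07G039400, chromosome 7, 3231998 to 3234448, plus strand, 1 exon of 2451 bp), which encodes a GRAS transcription factor that acts before NIN in Nod factor signalling, went the other way. OE root libraries held 11.81, 12.96 and 14.10 CPM, against 20.36, 20.02 and 14.75 CPM in WT root. The groups do not overlap, but WT root replicate 3 lies close to the highest OE library. Means were 12.96 ± 1.14 CPM in OE root, against 18.38 ± 3.14 in WT root (SD, n = 3 each), a log2FC of -0.50 (SE 0.159, 95% interval -0.83 to -0.18, edgeR adjusted p = 0.0155). The call rested on several libraries. Leaving out replicate 1 or 2 of OE root gave an edgeR adjusted p of 0.0896 or 0.0555, leaving out replicate 1 or 2 of WT root gave 0.0803 or 0.0849, and the log2FC stayed between -0.50 and -0.42. Without WT root replicate 3 it was larger, at -0.64 (edgeR adjusted p = 0.00202).

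The NINA to NSP1 ratio per kilobase was 0.65, 0.636 and 0.47 in OE root, against 0.0791, 0.101 and 0.173 in WT root. Every OE library was above every WT library. This follows from the root values above, with NINA higher and NSP1 lower in every OE library. The separation and the p below were therefore fixed and add no further result. The mean ratio was 0.586 ± 0.1 in OE root, against 0.118 ± 0.0494 in WT root (SD, n = 3 each), 4.97-fold higher, with p = 0.1 in a two-sided exact permutation test, again the smallest possible (0.133 adjusted over the 4 ratios). The ratio of NINA to NFR5A was 0.214 ± 0.0222 in OE root, against 0.0823 ± 0.0226 in WT root, with the same exact permutation p. That of NARK to its sister copy CLV1A was 4.29 ± 0.819 in OE root, against 3.71 ± 0.159 in WT root (exact permutation p = 0.3), and these libraries overlapped. For all 5 genes the OE root and WT root libraries did not overlap in CPM. Over all genes tested this held for 19.5% with OE higher and 24.7% with OE lower.

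**Figure D2:**
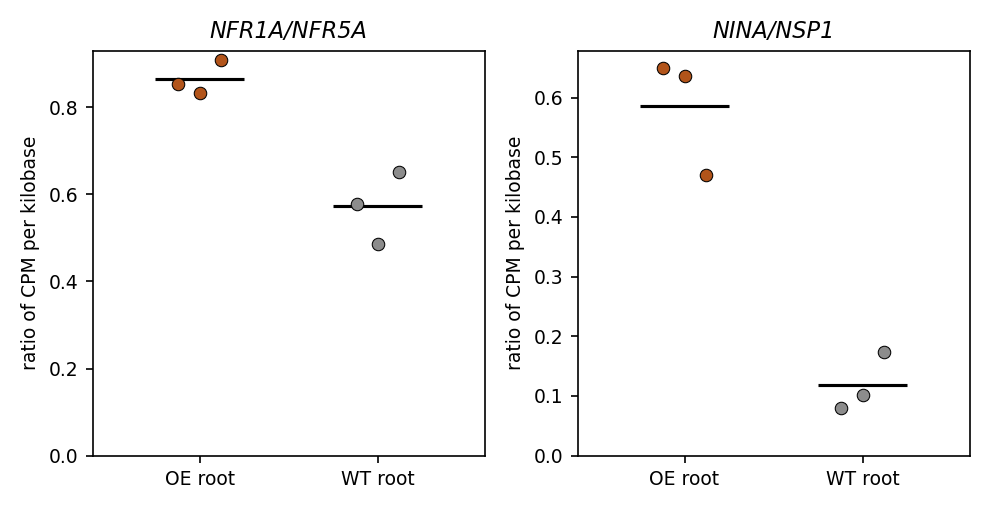
Ratio of CPM per kilobase of NFR1A to NFR5A (left) and of NINA to NSP1 (right) in OE root and WT root, with 1 point per library and a bar at the mean of 3. Both ratios are higher in each OE library, with means of 0.864 against 0.572 and of 0.586 against 0.118. For NINA to NSP1 this follows from the separate changes of the genes.

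**Figure D3:**
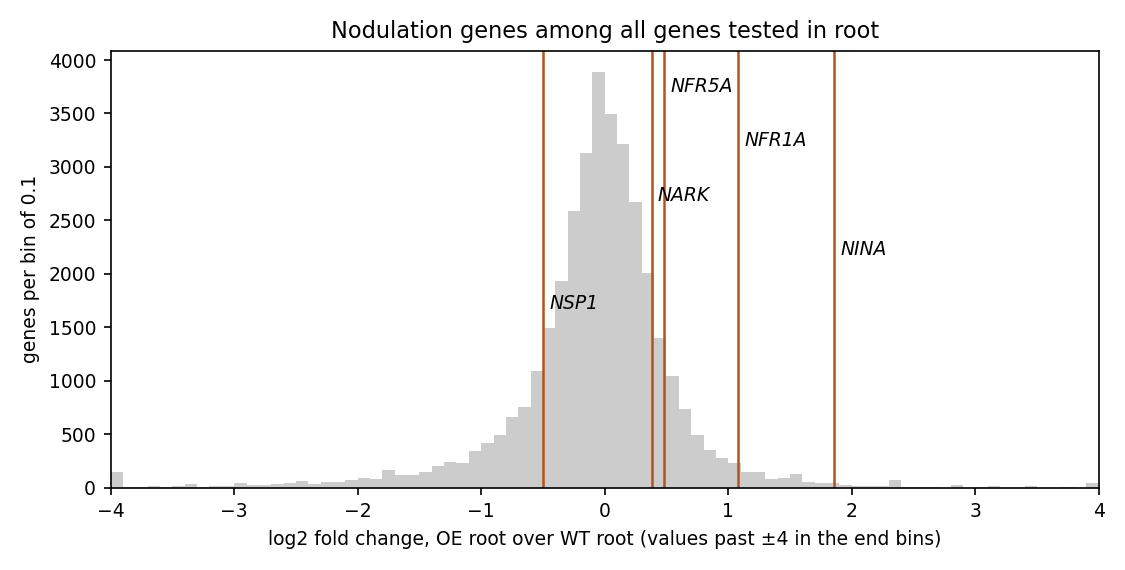
Histogram of the root log2FC (OE over WT) of the 35968 genes tested, in bins of 0.1, with lines at the 5 genes. NINA at 1.86 and NFR1A at 1.08 lie in the upper tail, NFR5A at 0.48 and NARK at 0.38 on the upper shoulder, and NSP1 at -0.50 on the lower one.

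NSP1 in leaf rested on very few reads. OE leaf libraries had 2, 11 and 10 counts, against 4, 1 and 1 in WT leaf. The groups overlap, since OE leaf replicate 1 is below WT leaf replicate 1. The log2FC was 1.5 (SE 0.684, 95% interval 0.11 to 2.90) with an edgeR adjusted p of 0.0796, which missed the threshold. It passed without OE leaf replicate 1 (1.98, edgeR adjusted p = 0.0142), without WT leaf replicate 1 (2.45, edgeR adjusted p = 0.033) and on library totals (1.86, edgeR adjusted p = 0.0174). The test of the difference itself gave an OE effect on NSP1 that was lower in root than in leaf by 2.01 on the log2 scale (SE 0.696, 95% interval -3.42 to -0.59, edgeR adjusted p = 0.0342), on 23 counts in OE leaf and 6 in WT leaf. That call was lost when replicate 1 of OE root (edgeR adjusted p = 0.0507), replicate 2 or 3 of OE leaf (0.142 or 0.124) or replicate 2 or 3 of WT leaf (0.109 or 0.119) was left out. Over all genes the rule called 22.8% for this difference, 11.6% higher and 11.2% lower.

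Of the 2 genes with enough leaf counts, NARK and NSP1, edgeR called 0 in leaf, where it called 40.4% of all genes, 18.3% higher and 22.1% lower in OE. At an unadjusted p under 0.05 edgeR had 1 of them, NSP1, and DESeq2 called 0 after adjustment and had 1 before. NFR5A, NFR1A and NINA were at or under the floor of 3 counts in both leaf groups, so neither a leaf effect nor a difference between tissues can be given for them.

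Between root and leaf, the only tissues sampled, all 5 transcripts were higher in root in both genotypes. NFR5A had 2348 counts over the OE root libraries and 1479 over the WT root libraries and none in leaf. Set against 3 counts per leaf library, it was at least 170-fold higher in OE root than in OE leaf and at least 92.8-fold higher in WT root than in WT leaf. NINA was at least 50.3-fold higher in OE root than in OE leaf and at least 10.5-fold higher in WT root than in WT leaf. NINA had 694 counts over the OE root libraries and 168 over the WT root libraries, and 3 counts were worth 0.188 CPM in OE leaf and 0.247 CPM in WT leaf.

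The other 3 genes had some leaf counts. NFR1A had a root over leaf ratio of 1540 in OE (exact 95% interval from the counts, 277 to 61000) and 184 in WT (62.9 to 896). These intervals cover counting error only and overlap. The single OE count was in OE leaf replicate 2 and all 3 WT counts were in WT leaf replicate 3. Without those libraries NFR1A had no leaf count, and the ratio was at least 169-fold in OE and at least 61.5-fold in WT, against 3 counts per leaf library. NSP1 had a ratio of 27.1 in OE (18 to 43) and 111 in WT (51 to 304). Its intervals also cover counting error only and leave out the spread among libraries. Leaf libraries held 2, 11 and 10 counts of NSP1 in OE and 4, 1 and 1 in WT. Without WT leaf replicate 1, which held 4 of the 6 WT leaf counts, the WT ratio was 223 (61.6 to 1840). NARK had the smallest tissue contrast, with a log2FC of root over leaf of 2.22 in OE (SE 0.13, edgeR adjusted p = 9.56e-17) and 1.98 in WT (SE 0.139, edgeR adjusted p = 1.2e-14). edgeR called NARK higher in root in both genotypes. Across other scalings, filters and fits the NARK log2FC ran from 2.22 to 2.84 in OE and from 1.92 to 2.88 in WT. Its size thus depends on the processing. The other 4 genes entered the test through their root counts, so their calls, also higher in root, were largely fixed by the filter and are given as a description. Over all genes edgeR called 77.3% between OE root and OE leaf (40% higher and 37.4% lower in root) and 77.7% between WT root and WT leaf (41.8% higher and 35.9% lower in root).

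Across the groups, NFR5A, NFR1A, NARK and NINA followed the order OE root, WT root, leaf, and NSP1 the order WT root, OE root, leaf. The 2 leaf groups overlapped for NARK and NSP1, and the other 3 genes were at or under the floor in both. Between genes, levels were compared per kilobase of exon. In OE root the order was NFR5A at 14.36 ± 0.436, NFR1A at 12.41 ± 0.512, NARK at 11.01 ± 0.24, NSP1 at 5.29 ± 0.466 and NINA at 3.07 ± 0.335 CPM per kilobase (SD, n = 3 each). No 2 neighbours in that order overlapped.

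In WT root the order was NFR5A at 10.31 ± 0.758, NARK at 8.45 ± 0.655, NSP1 at 7.5 ± 1.28, NFR1A at 5.86 ± 0.444 and NINA at 0.843 ± 0.194 CPM per kilobase. Here NARK and NSP1 overlapped, as did NSP1 and NFR1A, through WT root replicate 3 of NSP1. NFR1A came directly after NFR5A in OE root, but after NARK and NSP1 as well in WT root. NFR5A exceeded 82.3% of genes tested in OE root and 73.7% in WT root by level per kilobase, and NINA 42.6% and 18.5%. NARK exceeded 36.3% of genes in OE leaf and 35.3% in WT leaf.

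Other genes of the pathway were taken from a list of 27 identifiers, of which 13 could be tied to a named gene of the RefSeq symbol table and 5 had enough counts to test. In root, edgeR called 0 of these 5, where it called 30.1% of all genes. It also had 0 at an unadjusted p under 0.05, and DESeq2 had 0 before and after adjustment. That count depends on which identifiers could be tied to a name. Of the 11 counted identifiers without a matching symbol, 8 were tested, and edgeR called 5 of them in root, 3 higher and 2 lower in OE, with log2FC of the 8 between -1.28 and 2.79. Over all 13 tested identifiers of the list, 5 were called (38.5%), and the median log2FC was -0.01, against -0.02 over all genes tested. The unmatched ones are counted but not named. NFR1A has no matching symbol either, and is named because the set of 5 gives it by identifier. SYMRK-ALPHA and SYMRK-BETA, the 2 copies of the receptor kinase that passes on the Nod factor signal, were abundant in root and nearly level between genotypes. SYMRK-ALPHA had 141.7 ± 9.67 CPM in OE root, against 142.4 ± 5.96 CPM in WT root (SD, n = 3 each), a log2FC of -0.01 with a 95% interval of -0.20 to 0.19, whose sign depends on the setting. SYMRK-BETA had 123.5 ± 6.42 and 123.6 ± 7.02 CPM in OE root and WT root, with an interval of -0.19 to 0.18. Both intervals lie below the log2FC of NFR5A, 0.48, and of NFR1A, 1.08.

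Duplicates of NFR1 and NARK behaved differently in level. Identifiers listed as other copies of NFR5, NIN and NSP1 could not be tied to a name and are not described. NFR5A, NINA and NSP1 therefore need not hold all NFR5, NIN or NSP1 transcripts. NFR1B, the second copy of NFR1, was almost absent, with 2 counts over the OE root libraries and 3 over the WT root libraries, so the NFR1 transcripts counted in root were nearly all assigned to NFR1A. CLV1A, the sister copy of NARK, was far below NARK in root, at 2.63 ± 0.467 CPM per kilobase in OE root, against 2.28 ± 0.153 in WT root (SD, n = 3 each). Its root log2FC was 0.20 (SE 0.168, 95% interval -0.14 to 0.55, edgeR adjusted p = 0.399), an interval that includes the NARK value of 0.38. In leaf it was at 1.41 ± 0.296 CPM per kilobase in OE and 1.27 ± 0.201 in WT. The counting command records no option for reads that map to several places, and how alike these copies are in sequence was not measured, so their values are uncertain.

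Several other genes of the list had few or no counts. RIC2, a CLE peptide gene induced by rhizobia, and FWL1, a nodule-expressed membrane protein gene, had no count in any library. NIC1, a CLE peptide gene induced by nitrate, had 18 counts over the OE root libraries and 21 over the WT root libraries. N-26, which encodes the nodulin-26 channel of the symbiosome membrane, had 35 and 41 counts in OE root and WT root and a log2FC of -0.41 (95% interval -1.49 to 0.67, edgeR adjusted p = 0.613). RJ2, a resistance gene that bars some rhizobia, had 1 count over the OE root libraries and 0 over the WT root libraries.

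SS, a sucrose synthase gene also named nodulin N-100, was abundant in root, at 549.9 ± 29.7 CPM in OE and 535.2 ± 38.2 in WT (SD, n = 3 each; log2FC 0.04, 95% interval -0.18 to 0.26). In leaf it fell to 10.83 ± 3.05 CPM in OE, against 19.15 ± 2.9 in WT (log2FC -0.83, SE 0.144, edgeR adjusted p = 3.31e-05). It was the 1 gene called of the 3 matched ones with more than 3 counts in both leaf groups, and over all 6 identifiers of the list with such counts 3 were called, all lower in OE. Over all genes in leaf, 40.4% were called. The difference of the OE effects on SS, root minus leaf, was 0.87 (SE 0.178, edgeR adjusted p = 0.000586).

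**Figure D4:**
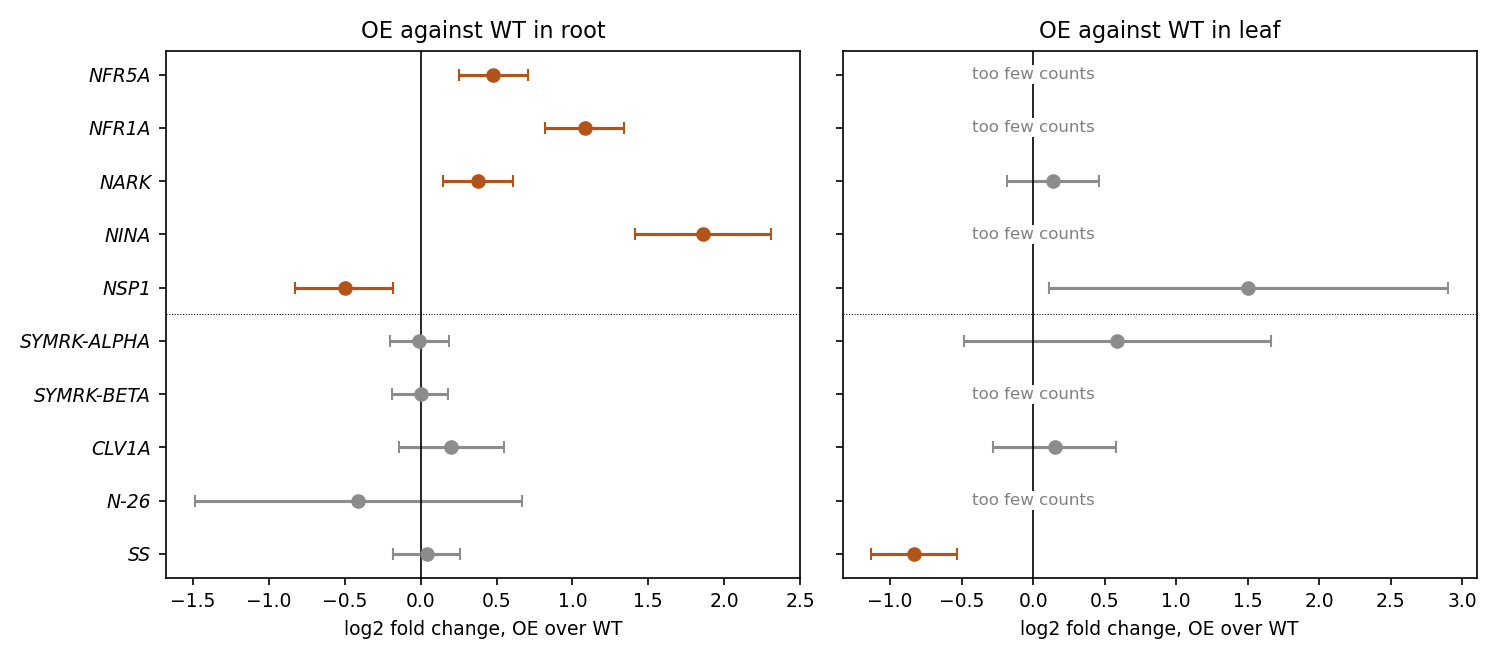
log2FC of OE over WT in root (left) and leaf (right) with 95% intervals for the 5 genes (above the dotted line) and the 5 tested genes of the pathway list with a matched name (below it). Coloured points passed the adjusted threshold of 0.05, grey ones did not, and genes with 3 counts or fewer in a group are marked as having too few counts. In root the values above the line run from -0.50 for NSP1 to 1.86 for NINA; identifiers of the list without a matched name are not drawn.

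The genes most like each of the 5 were ranked by Pearson's r of log2(CPM + 0.5) over the 12 libraries, among the genes tested. The points share a tissue split, which raises r, and r above 0.99 was reached by 1161 genes for NFR5A, 433 for NFR1A, 116 for NSP1, 39 for NARK and 34 for NINA. NFR5A was closest to Glyma.07G219800, Glyma.07G067700 and Glyma.18G252400 (r = 0.9999 each). NFR1A was closest to Glyma.01G012200 (0.9994), Glyma.15G007900 (0.9983) and Glyma.05G070400 (0.9981). NARK was closest to Glyma.11G139500 (0.996), Glyma.12G063100 (0.9954) and Glyma.01G190300 (0.9949). NINA was closest to Glyma.19G188400 (0.9971), at 9.43 CPM in OE root and 2.59 in WT root, and then to Glyma.15G110500 (0.9965) and Glyma.09G006000 (0.9963). NSP1 was closest to Glyma.07G243300 (0.9967), Glyma.15G009500 (0.996) and Glyma.08G044200 (0.9957). Within the 6 root libraries alone, their r with NSP1 was 0.94, 0.98 and 0.71, while for the other 4 members it was 0.97 to 0.99. Glyma.07G243300 had 49.5 CPM in OE root and 18.8 in OE leaf, a much smaller tissue contrast than that of NSP1. None of the 5 appears among the 3 closest genes of another, which says little with so many genes above 0.99.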

How the data were processed

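Per the file headers, the authors counted paired-end reads over the exons of each gene in annotation Wm82.a2.v1 with featureCounts 2.0.1 and deposited the raw counts. All coordinates are of that annotation. Which aligner was used is not stated in the labels or headers. No strand option is recorded, so sense and antisense reads cannot be told apart; no other gene model overlaps any of the 5 genes.

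edgeR 4.0.16 was run under R 4.3.3 (TMM factors, filterByExpr, robust quasi-likelihood fit with a coefficient per group on all 12 libraries, 8 residual degrees of freedom). A run on data simulated from the means and spread of these libraries checked the code. It does not show how well the fit suits the real counts. The filter kept 35968 of 43517 genes. All 5 genes passed the filter, and NFR5A, NFR1A, NINA and NSP1 passed through their root counts. TMM factors ranged over 1.345 to 1.352 (OE root), 1.249 to 1.276 (WT root), 0.862 to 0.889 (OE leaf) and 0.665 to 0.676 (WT leaf), a scaling that assumes most genes do not differ. Replicates differed by more than sampling noise (chi-square per gene 2.26 to 9.87).

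The symbol table (Glycine_max_v4.0) matched 0 identifiers directly. A name was kept where exactly 1 gene of fitting symbol on the same chromosome had a span within 10%. This held for 4 of the 5 genes and not for NFR1A, whose name comes with the given set. The identifier of GmZF351 had no match either and rests on general knowledge. Identifiers of the list without a match were counted but not named. Genes named were the 5, the matched list, the markers and the 3 closest patterns. The 5 genes and the lists were chosen with earlier results of these data known. Alternatives were other scalings, DESeq2 1.42.0, other filters, a fit of the 2 groups alone, a non-robust fit, a replicate block and leaving out each library.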

Additional observations from a re-analysis of the deposited data

Results flagged for a closer look

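NSP1 was flagged because its OE effect differed between the tissues in the direct test, with a difference, root minus leaf, of -2.01 (SE 0.696, edgeR adjusted p = 0.0342). Its log2FC (OE over WT) was -0.50 in root and 1.5 in leaf, and the leaf value alone missed the threshold. The leaf side rests on 2, 11 and 10 counts in OE, against 4, 1 and 1 in WT. The part of these low counts in the result was not tested. Over the alternatives the adjusted p ran from 0.00542 to 0.142.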

How the results depend on the processing

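The 19 log2FC of the 5 genes were recomputed under up to 21 alternatives, which gave 397 values: 381 kept direction and side of the threshold, 10 lost a call, 4 gained one and 2 turned sign. The root calls of NFR5A, NFR1A and NINA and the root over leaf calls of NARK held in each alternative. The root over leaf calls of the other 4 are not read as stability, since these genes entered the test through root. Leaving out single libraries gave a root log2FC of 0.34 to 0.45 for NARK, whose call ended without WT root replicate 2, and -0.64 to -0.42 for NSP1, whose call ended in 4 of these. In leaf the range was -0.03 to 0.33 for NARK and 1.18 to 2.45 for NSP1, and for the NSP1 difference between tissues it was -2.96 to -1.68. Library totals without factors, an alternative chosen after seeing the data, gave 0.52 for NARK and 1.86 for NSP1 in leaf, both past the threshold, and -0.04 for the NARK difference. They shifted the median of all genes by 0.382 in leaf and -0.286 in the difference, where the higher and lower calls became 15977 and 3960 in leaf, against 6596 and 7948, and 2377 and 9510 in the difference, against 4167 and 4031. In root they gave 6387 and 4977. SYMRK-ALPHA in root, not called, turned to 0.06 with upper-quartile factors, 0.02 in the fit of 2 groups and 0.09 on library totals, and ran from -0.06 to 0.03 without single libraries. The cause of these changes was not tested, and fits without a library also rest on fewer libraries.

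Same-numbered replicates did not deviate together (r -0.143 to 0.112, 9 of 36 best with their own number). The numbers thus gave no sign of a pairing of the samples, which this check cannot exclude. With replicate number as a block, 10219 genes were called in root, 14045 in leaf and 7739 for the difference, and no call of the 5 genes changed. Low leaf counts limit the results for NFR5A, NFR1A, NINA and NSP1.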
